A study of Arabidopsis thaliana with 12 samples.

Results

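The interaction between genotype and calcium was measured in Arabidopsis shoots: how far the change from 2 to 0.3 mM calcium in the mutant lcs7 exceeded, or fell short of, the change in the wild type Col-0. It was computed per gene as the difference between lcs7 and Col-0 at 0.3 mM minus the same difference at 2 mM, on log2(signal + 50), with all 12 arrays. Its members are the 7805 of 13356 tested genes whose mean signal reached 100 in at least 1 of the 4 groups. The signal limit chose the members without regard to the direction of the interaction, but a gene low in 3 groups could enter only through the group where it was high. Of the members, 266 reached the limit in lcs7 at 0.3 mM alone, and 98 of the 357 higher calls and 0 of the 373 lower calls described below are among them, so counts and medians of lists with such genes lean on the filter and are descriptions. The member nearest above the limit was SBT4.12, with a highest group mean of 100.2 and an interaction of 0.68, and the gene nearest below was BGAL16, with 99.8 and -0.09.

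The 4 groups were Col-0, the wild-type ecotype, at 2 mM and at 0.3 mM calcium, and lcs7, 1 mutant line of AVP1 in the Col-0 ecotype, at the same 2 levels. Each had 3 biological replicates, 1 Affymetrix ATH1 array per replicate. All seedlings were 14 days old, grew on vertical plates of Yamagami agar with sucrose, and gave whole shoots as tissue. No second avp1 line and no complemented line is among the arrays, so a difference cannot be told apart from one that belongs to this line alone, and in whole shoots fewer cells of a type and less RNA per cell cannot be told apart.

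AVP1 is the proton-pumping pyrophosphatase of the vacuole: it splits pyrophosphate, a by-product of biosynthesis, and moves protons into the vacuole. The proton gradient made by this pump and by the vacuolar ATPase drives calcium into the vacuole through cation/proton exchangers, and calcium outside the vacuole is read by calmodulin and calmodulin-like sensors, by calcium-dependent kinases and by wall pectin, which calcium cross-links. Calcium supply and the vacuolar pump both bear on calcium handling, and the interaction asks where the joint result of low calcium and the mutation departs from the sum of both single results on the log2 scale.

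The shoot marker RCA, the activase of Rubisco, gave signals between 17245 and 25510 on every array. The root markers EXPA7 and AT5G66390 stayed between 7.0 and 45.1 and between 0.9 and 14.2. PYK10, an ER body beta-glucosidase that is also listed as a root marker, gave 907 to 7033, and its interaction of 0.49 ± 0.22 (SE) did not pass the test (limma adjusted p = 0.248). Of the 22 markers listed, 1 of 6 shoot, 3 of 8 root, 1 of 4 guard cell and epidermis, and 0 of 4 phloem and flower markers had a named probe set. Median signals of the arrays lay between 161.3 and 187.6. At 11 genes whose every lcs7 array had a signal of at least 300 and was at least 8-fold above every Col-0 array at 2 mM, Col-0 replicate 1 at 0.3 mM lay at -0.1% of the way from Col-0 at 2 mM to lcs7 at 0.3 mM, but replicates 2 and 3 lay at 25.5% and 37.2% (medians over the genes). At these genes those 2 arrays stand between Col-0 and lcs7, against their label, so the calls that also pass without them are given beside the main counts. That fit rests on replicate 1 as the only Col-0 array at 0.3 mM. Replicate 1 had the lowest limma array weight of all arrays, 0.58, where a noisier array gets a smaller weight. Leaving out replicate 1 instead gave 866 calls. Which of these arrays represents Col-0 at 0.3 mM best was not tested.

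Across the member genes, lcs7 at 0.3 mM was set off from the other 9 arrays. Along principal component 1, with 64.6% of the variance, its arrays lay between 40.4 and 42.6, and the other 9 arrays lay between -29.0 and 1.3. On component 2, with 12.2% of the variance, the lcs7 arrays at 2 mM lay lowest, between -19.5 and -15.3. Col-0 replicate 1 at 0.3 mM lay highest on it, at 17.8, against 8.2 and 7.7 for replicates 2 and 3.

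**Figure D1:**
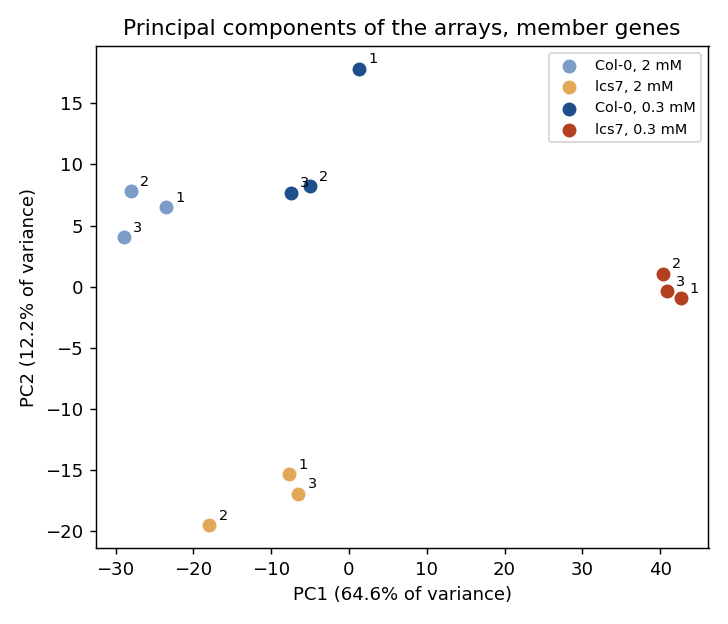
First and second principal components of the 12 arrays over the 7805 member genes (points are arrays, numbers are replicates, colours are the 4 groups, axes give the share of variance). The 3 lcs7 arrays at 0.3 mM lie at 40.4 to 42.6 on the first component, all others at or below 1.3.

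The low calcium change was larger in size in lcs7 than in Col-0 at most members. The median size of the low calcium change, without its sign, was 0.28 on the log2 scale in lcs7 and 0.16 in Col-0. A change of at least 1 was measured at 705 members in lcs7 and at 148 in Col-0, and the lcs7 change was the larger at 5463 of 7805. The changes had the same sign at 5707 members (73.1%), and across genes Pearson's r was 0.68 and Spearman's rho 0.64. The 2 changes share no array, and genes are not independent replicates, so these are descriptions.

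The interaction passed the test at 730 members (limma adjusted p under 0.05 over all 13356 genes), which is 9.35% of the members. Of these, 357 were higher (4.57%) and 373 lower (4.78%). The list counts below can be read beside these 2 shares, but they lean on the filter where members entered through lcs7 at 0.3 mM alone. Over all genes tested, 796 passed (5.96%), 402 higher (3.01%) and 394 lower (2.95%), and the median interaction of the members was -0.003. Without Col-0 replicates 2 and 3 at 0.3 mM, 272 members passed, 160 higher and 112 lower. Of the 730, 235 passed again there and all kept their sign. In all 12 fits that left out 1 array, 196 of the higher and 184 of the lower calls passed. With no offset added to the signals, 281 members passed, all among the 730, and 49 of the 103 called genes named here were among them.

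The higher calls had a larger median size than the lower ones. Among the 357 higher, the median interaction was 1.00, 179 reached 1 and 33 reached 2. Among the 373 lower, the median was -0.73, 75 reached -1 and 1 reached -2. Most calls came from lcs7 at 0.3 mM moving away from the other 3 groups: it was the group farthest from the rest at 308 of the higher and 316 of the lower calls. Its 3 arrays lay above the other 9 at 319 of the 357 higher calls and below the other 9 at 324 of the 373 lower calls, where 15.3% and 19.0% of all members do so. The calls were chosen on a contrast of these same arrays, which favours such genes, so the counts of forms in this paragraph are descriptions. Among the higher calls, 257 changed by over 0.5 upwards in lcs7 and by no more than 0.5 in Col-0, and 289 of the lower calls did so downwards. Both genotypes changed by over 0.5 in opposite directions at only 5 higher and 4 lower calls. A second form was smaller: lcs7 at 2 mM was the group that stood apart, below the rest at 25 higher calls and above the rest at 38 lower calls.

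**Figure D2:**
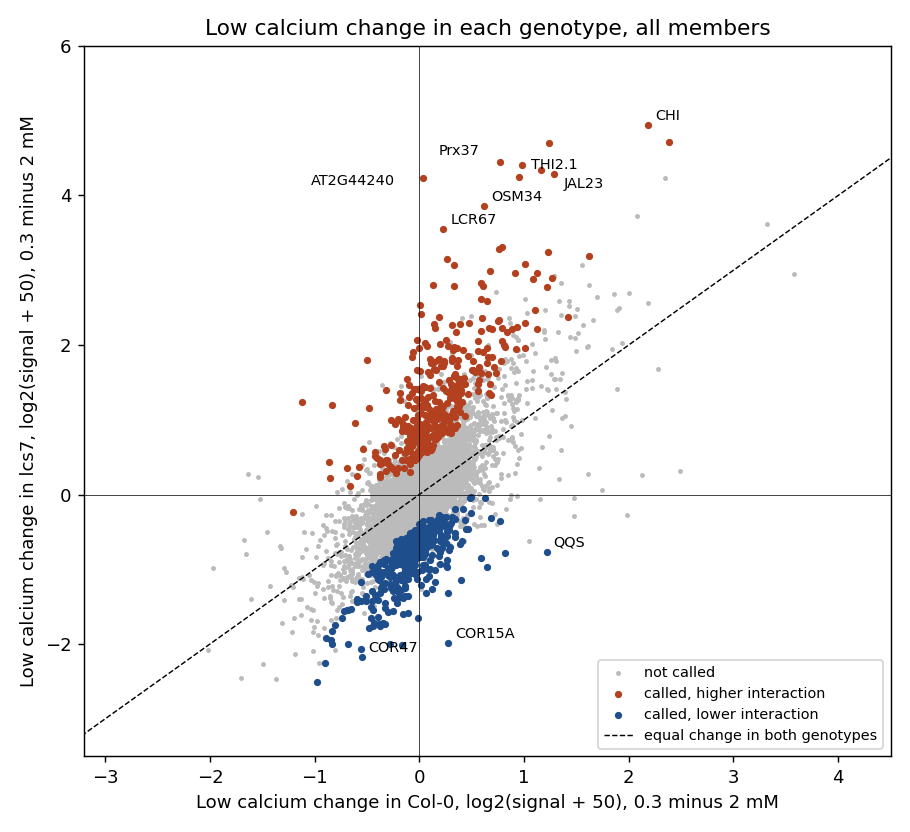
Low calcium change (0.3 minus 2 mM) on log2(signal + 50) in Col-0 (x) and in lcs7 (y) for the 7805 members, 1 point per gene, means of 3 arrays per group, with called members coloured. The higher calls rise along the lcs7 axis with Col-0 changes mostly within 0.5, and COR15A and QQS lie below the line of equal change with Col-0 changes above 0.

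Antimicrobial and jasmonate-responsive genes made up 4 of the 10 largest higher calls, THI2.1, LCR67, JRG21 and OSM34. Of 8 members on a list of antimicrobial defence proteins, 4 were called higher and 1 lower. Their median was 1.59, but 3 of the higher calls reached the signal limit in lcs7 at 0.3 mM alone, and over all 15 tested genes of the list the median was 0.16 with the same calls. Of 7 jasmonate and wound genes 3 were called higher and none lower, with a median of 1.88, and 2 of the 3 entered through lcs7 at 0.3 mM alone. That median is the value of PDF1.2, which was not called, at 1.88 ± 1.16. The other uncalled genes AT2G38240, PDF1.2b and THI2.2 gave 1.90 ± 0.62, 0.30 ± 1.08 and -0.52 ± 0.27. Without the Col-0 replicates 2 and 3 at 0.3 mM, 4 of 5 antimicrobial and 3 of 3 jasmonate calls passed. OSM34, an osmotin-like protein of the PR-5 family, gave 41.2, 16.6 and 21.2 in Col-0 at 2 mM, 71.8, 87.0 and 49.1 in lcs7 at 2 mM, 76.4, 80.9 and 44.9 in Col-0 at 0.3 mM, and 1406, 1702 and 1927 in lcs7 at 0.3 mM. All 3 arrays of the last group lay far above every other array, and the Col-0 arrays at 2 mM lay below all others. Adding the 2 single differences would give a signal of 131.8, the fitted level was 1665, and the interaction was 3.24 ± 0.25 (SE, n = 3 arrays per group, limma adjusted p = 6.26e-05).

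THI2.1, a thionin long used as a marker of jasmonate signalling, gave 26.7, 41.9 and 27.0 in Col-0 at 2 mM, 37.2, 30.6 and 46.0 in lcs7 at 2 mM, 177, 111 and 64.6 in Col-0 at 0.3 mM, and 1507, 2503 and 1558 in lcs7 at 0.3 mM. The lcs7 arrays at 0.3 mM did not overlap with any other group, and the Col-0 arrays at 0.3 mM lay above both groups at 2 mM. Its interaction was 3.42 ± 0.33 (limma adjusted p = 0.000308). LCR67, a plant defensin, gave 4.1, 1.9 and 1.7, then 2.5, 9.1 and 25.0, then 4.0, 31.7 and 2.9, and then 559, 735 and 724 in the same order of groups. It was near the background of the array in 3 groups, so only its level in lcs7 at 0.3 mM is well measured. The interaction was 3.32 ± 0.25 (limma adjusted p = 6.26e-05), and the log2 scale with 50 added understates such changes.

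JRG21, a dioxygenase that hydroxylates jasmonate, gave at most 26.6 on any array at 2 mM, 95.0, 97.4 and 34.2 in Col-0 at 0.3 mM, and 1095, 819 and 1570 in lcs7 at 0.3 mM, with an interaction of 3.29 ± 0.37 (limma adjusted p = 0.000794). The defensin-like PDF1.4, on both lists, reached 550, 413 and 544 in lcs7 at 0.3 mM against at most 113 elsewhere (interaction 1.31 ± 0.20). CHI, listed as a putative chitinase, was already up in Col-0 at low calcium, at 655, 147 and 172 against 5.4 to 32.5 at 2 mM, and gave 2758, 3498 and 3283 in lcs7. Its interaction of 2.76 ± 0.64 passed in only 4 of the 12 fits without 1 array, and was 1.59 (limma adjusted p = 0.196) without Col-0 replicates 2 and 3 at 0.3 mM. LCR68, another defensin, was called in the other direction (-0.74 ± 0.13), since it was highest in Col-0 at 0.3 mM, at 4671, 4522 and 4351, and had its lowest mean in lcs7 at 0.3 mM, at 2461, 3098 and 2849, which overlapped with Col-0 at 2 mM.

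The other large higher interactions were of several kinds. The class III peroxidase Prx37, an extracellular enzyme family that acts on the cell wall, gave 1716, 2210 and 2474 in lcs7 at 0.3 mM against 27.8 to 131.9 on the other 9 arrays, with an interaction of 3.68 ± 0.33 (limma adjusted p = 0.00017). JAL23, a jacalin-type lectin associated with ER bodies, gave 1932, 1703 and 2473 against 36.0 to 232.9 elsewhere, and the Col-0 arrays at 0.3 mM, at 194, 233 and 164, lay above all 6 arrays at 2 mM. AT2G44240 gave 1318, 659 and 1039 in lcs7 at 0.3 mM and no more than 7.0 on any other array, the largest interaction among the members (4.2 ± 0.26, limma adjusted p = 2.84e-05). The loci AT4G16260, AT1G54020 and AT1G26390 had interactions of 3.45, 3.18 and 2.88. All 10 of the largest higher calls passed in every fit without 1 array and again without Col-0 replicates 2 and 3 at 0.3 mM, and 6 of the 10 passed with no offset. AT1G54020 (limma adjusted p = 0.0576), AT4G16260 (0.0785), JRG21 (0.105) and LCR67 (0.116) did not pass with no offset.

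**Figure D3:**
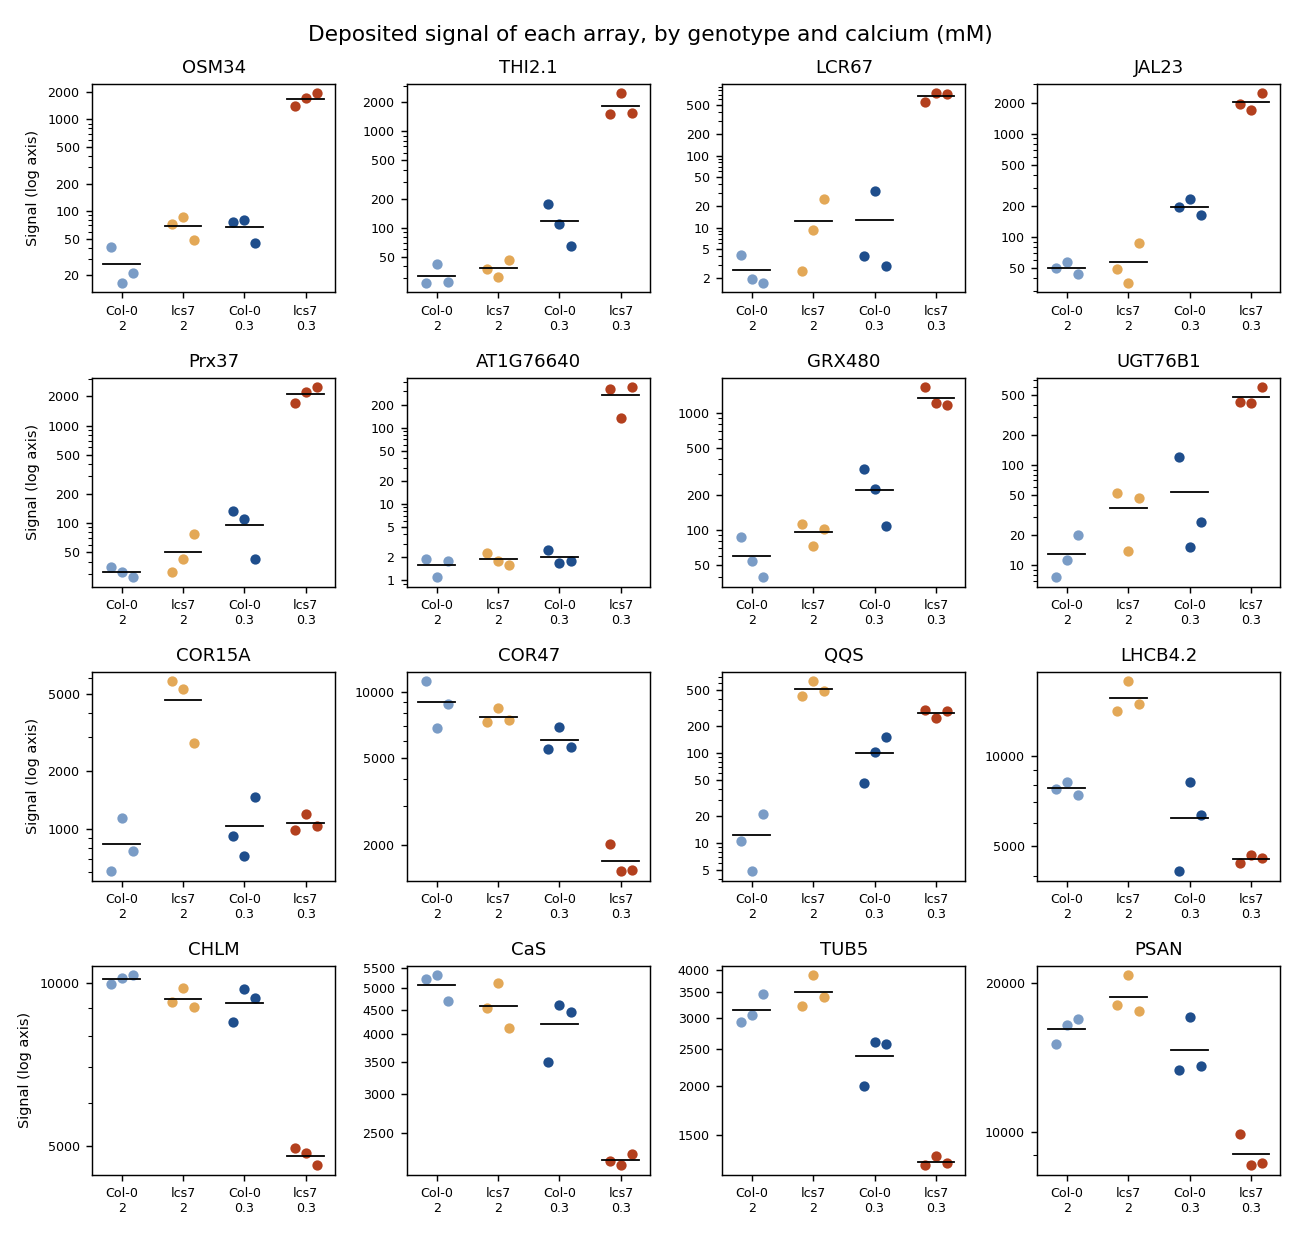
Deposited signal of each array (log axis, 1 point per array, bar is the group mean) for 16 members, by genotype and calcium in mM. In OSM34, THI2.1, LCR67 and Prx37 the 3 lcs7 arrays at 0.3 mM lie above all others, and in CHLM, CaS and TUB5 below all others, while COR15A is high only in lcs7 at 2 mM.

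Calcium sensors were called at 5 of 10 members. Of these, 4 were called higher and 1 lower, with a list median of 0.94. The higher AT1G76640, CML37 and CML43 are members only through lcs7 at 0.3 mM, the group that also sets their interaction, so the count is a description and is not set against the share of all members. Of the 5, 3 passed again without Col-0 replicates 2 and 3 at 0.3 mM. AT1G76640, the calmodulin-like CML39, gave 1.1 to 2.5 on 9 arrays and 325, 135 and 339 in lcs7 at 0.3 mM. It was at background in Col-0 at both calcium levels and in lcs7 at 2 mM, so the 3 arrays of 1 group carry its whole interaction of 2.52 ± 0.30 (limma adjusted p = 0.00122). CML37 was partly up in Col-0 at low calcium, at 34.7, 48.9 and 15.5 against 1.1 to 12.3 in the same line at 2 mM, and reached 318, 133 and 113 in lcs7 (interaction 1.49 ± 0.36, limma adjusted p = 0.033). It did not pass without Col-0 replicates 2 and 3 (adjusted p = 0.142).

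CML41 gave 440, 455 and 427 in lcs7 at 0.3 mM against 68.0 to 169.7 elsewhere, an interaction of 1.27 ± 0.22. CML43 gave 156.5, 143.9 and 161.2 against 30.2 to 62.9, an interaction of 1.1 ± 0.16. The sensor that went the other way was CML30, which gave 166, 167 and 222 in lcs7 at 0.3 mM against 333 to 474 elsewhere (-0.72 ± 0.16). These 5 proteins share the EF-hand fold that binds calcium, and in this set the call was higher at 4 of them and lower at the other.

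Of 7 members of calcium transport and channels, 1 was called in each direction. The one called higher, GLR2.8, is a member only through lcs7 at 0.3 mM. GLR2.8, a glutamate receptor-like cation channel, gave 388, 274 and 292 in lcs7 at 0.3 mM, and all 9 other arrays lay between 36.9 and 70.6 (interaction 1.50 ± 0.19, limma adjusted p = 0.00146). CaS, the calcium-sensing protein of the chloroplast thylakoid, gave 2180, 2137 and 2255 in lcs7 at 0.3 mM against 3512 to 5304 elsewhere (-0.76 ± 0.16, limma adjusted p = 0.0195). The Col-0 array lowest in CaS at 0.3 mM was replicate 1, at 3512, the array without the lcs7-type signal, and without the other 2 the interaction was -0.52 (adjusted p = 0.155).

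None of the 3 listed subunits of the vacuolar-type ATPase and none of the 4 listed pyrophosphate genes was called. AVP1 itself was not analysed here. The 3 members that are proton pump subunits had a median of -0.01, with VHA-A1, the subunit of the trans-Golgi ATPase, at 0.12 ± 0.16 and VHA-A2, of the vacuolar membrane, at -0.14 ± 0.13 (limma adjusted p = 0.759 and 0.648). Of 4 members that make or use pyrophosphate, PPDK, pyruvate phosphate dikinase, gave 1343, 1251 and 1515 in lcs7 at 0.3 mM and 477 to 862 on all other arrays, a gap with no overlap, at 0.88 ± 0.25 (adjusted p = 0.0657). AT1G76550, on the same list, gave 0.35 ± 0.15 (adjusted p = 0.236).

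Of 3 members of salicylic acid and immune signalling, 2 were called higher and none lower, where 4.57% of all members were called higher. GRX480, a glutaredoxin that binds TGA transcription factors, gave 1650, 1206 and 1166 in lcs7 at 0.3 mM against 330, 221 and 109 in Col-0 at 0.3 mM and 39.6 to 112 at 2 mM, with an interaction of 2.02 ± 0.39 (limma adjusted p = 0.0111). Without Col-0 replicates 2 and 3 it was 1.44 (adjusted p = 0.055). SAG101, a partner of EDS1 in immune signalling, gave 724, 647 and 655 against 211 to 300 elsewhere (0.96 ± 0.14). WRKY6, a transcription factor of senescence and defence and the 1 called of 6 early stress factors, gave 770, 587 and 619 against 92.2 to 172.1 (2.09 ± 0.27), and the Col-0 change was -0.02. SBT3.3 and SBT3.5, subtilases of which SBT3.3 is linked to immune priming, were called at 1.82 and 1.63. They were the 2 called of 5 subtilases, a family list added after values were seen. Of the 5 members, 2 reached the signal limit in lcs7 at 0.3 mM alone, SBT3.3 among them, so the count is a description.

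Glycosyltransferases, P450s and pigment genes followed. Of 30 UDP-glycosyltransferases 7 were called higher and none lower, of 11 cytochromes P450 4 higher and none lower, and of 5 anthocyanin and flavonoid genes 3 higher and none lower, where 4.57% of all members were called higher. Of the 7 glycosyltransferase calls, 6 entered through lcs7 at 0.3 mM alone, and over all 48 tested the median was 0.21. Of the 3 pigment calls, 2 entered in this way, AT4G14090 and UF3GT, and over all 6 tested the median was 0.89. UF3GT is on the glycosyltransferase and the pigment list and is counted in each. The counts of these 2 lists lean on the filter and are descriptions. Those that passed without Col-0 replicates 2 and 3 at 0.3 mM were 2 glycosyltransferases of the 7, 1 P450 of the 4 and 1 pigment gene of the 3. UGT76B1, which glucosylates salicylic acid and isoleucic acid, gave 421, 420 and 598 in lcs7 at 0.3 mM. In Col-0 at 0.3 mM its replicate 1 stood at 119 while replicates 2 and 3 gave 15.1 and 27.0. Its interaction was 2.02 ± 0.43 (limma adjusted p = 0.0195) with all arrays and 1.18 (adjusted p = 0.113) with replicate 1 alone.

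UGT73B4 was at background in 3 groups, 4.1 to 13.2, and gave 176, 154 and 214 in lcs7 at 0.3 mM (1.97 ± 0.15, limma adjusted p = 6.26e-05). UGT71B6, which glucosylates abscisic acid, and UGT71C3 were called at 1.39 and 1.17, and among the P450s CYP71B6 gave 2766, 2825 and 2973 against 694 to 1261 (1.63 ± 0.17). UGT71B6 passed in 2 of the 12 fits without 1 array. The anthocyanin pathway was called at DFR, dihydroflavonol reductase, which gave 916, 694 and 1117 against 103 to 275 (1.56 ± 0.24), and at UF3GT, an anthocyanin xylosyltransferase, at 1.07 ± 0.24. AT4G14090, on the same list, was called at 1.76 ± 0.39, with 293, 282 and 393 in lcs7 at 0.3 mM. Of these 3, DFR was the one that passed without the 2 arrays.

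ER bodies are endoplasmic reticulum compartments that store beta-glucosidases in Brassicaceae. JAL23 and NAI2, a protein needed to form ER bodies, were the 2 called of 7 members (NAI2 0.84 ± 0.21, limma adjusted p = 0.0408). NAI2 passed in 2 of the 12 fits without 1 array. Of 11 beta-glucosidases 4 were called higher and none lower, in a family list added after values were seen. Of the 4, 2 entered through lcs7 at 0.3 mM alone and 3 passed without Col-0 replicates 2 and 3 at 0.3 mM. BGLU46 and BGLU45, which act on monolignol glucosides, gave 390, 402 and 605 against 66.4 to 140.8, and 212, 144 and 260 against 52.4 to 78.5. Folding factors of the ER gave 2 higher of 11, ATERDJ3B (0.83 ± 0.14), with 2578, 2875 and 2894 against 1043 to 1751, and ATERDJ2B (0.56 ± 0.13), of which ATERDJ2B alone passed without those 2 Col-0 arrays.

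Genes of cold and dehydration had the most negative list median, -1.12, with 3 of 6 called lower and none higher, and COR47 alone passing without Col-0 replicates 2 and 3 at 0.3 mM. COR15A, a cryoprotective chloroplast protein, gave 606, 1143 and 766 in Col-0 at 2 mM, 5796, 5264 and 2792 in lcs7 at 2 mM, 915, 724 and 1463 in Col-0 at 0.3 mM, and 987, 1202 and 1033 in lcs7 at 0.3 mM. It was the lcs7 group at 2 mM that stood apart, and the 3 other groups overlapped. Its interaction was the most negative among the members at -2.27 ± 0.43 (limma adjusted p = 0.011), and without Col-0 replicates 2 and 3 it was -2.16 (adjusted p = 0.0581).

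The related COR15B was lowest in lcs7 at 0.3 mM, at 1439, 2010 and 1668, and highest in lcs7 at 2 mM, at 5896, 6097 and 4475, with Col-0 between 2776 and 4888 at both levels (-1.64 ± 0.29). COR47, a dehydrin, gave 2007, 1509 and 1529 in lcs7 at 0.3 mM, and all other arrays lay between 5486 and 11232 (-1.62 ± 0.25, limma adjusted p = 0.0035). The form of the 3 calls differed: at COR15A lcs7 at 2 mM stood apart, at COR47 lcs7 at 0.3 mM did. COR15A and COR15B are close copies whose probes could read each other, which was not tested.

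QQS, an orphan gene of starch metabolism, had another form. It gave 10.6, 4.9 and 21.3 in Col-0 at 2 mM, 432, 626 and 486 in lcs7 at 2 mM, 46.7, 103 and 150 in Col-0 at 0.3 mM, and 303, 243 and 293 in lcs7 at 0.3 mM. Low calcium went with a higher level in Col-0 and a lower one in lcs7, and lcs7 stayed above Col-0 at both levels (-1.98 ± 0.32, limma adjusted p = 0.00463). AT1G20030 and AT5G42250 were also highest in lcs7 at 2 mM, with means of 554 and 659 against 219 and 302 in lcs7 at 0.3 mM. At both, lcs7 at 2 mM was the group farthest from the rest, while at QQS it was Col-0 at 2 mM. AT1G20030 gave 58.7, 192.4 and 193.3 in Col-0 at 0.3 mM and passed in 2 of the 12 fits without 1 array. Without Col-0 replicates 2 and 3 at 0.3 mM the interaction was -0.77 at AT1G20030, -1.41 at QQS and -1.92 at AT5G42250. The wall enzyme GH9B13, an endoglucanase, was called at -1.60 ± 0.37, one of 2 called of 19 wall enzymes, both lower, and neither passed when Col-0 replicates 2 and 3 at 0.3 mM were left out. Among the 10 largest lower calls, 7 passed in all 12 fits without 1 array and 5 passed without Col-0 replicates 2 and 3 at 0.3 mM.

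**Figure D4:**
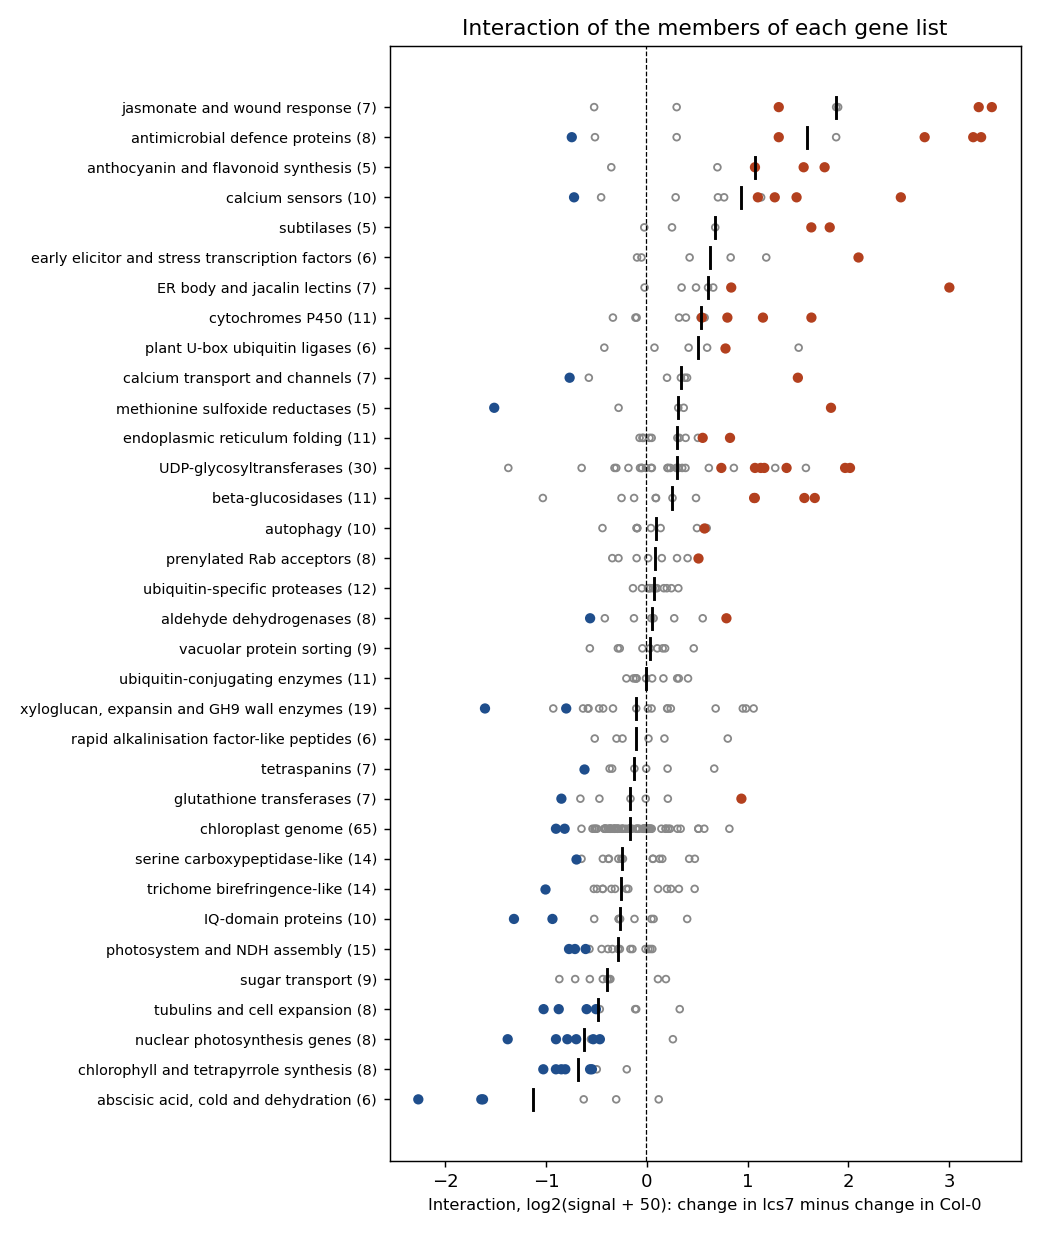
Interaction on log2(signal + 50) of each member of the lists with at least 5 members (points, red called higher, blue called lower, open not called) with the median of the list (bar) and the number of members in brackets. Jasmonate, antimicrobial and calcium sensor lists have medians of 1.88, 1.59 and 0.94, and the photosynthesis, chlorophyll and cold lists have medians of -0.63, -0.69 and -1.12.

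Most of the listed nuclear genes of photosynthesis and of chlorophyll synthesis were called lower, where 4.78% of all members were. Of 8 nuclear photosynthesis genes 6 were called lower and none higher (median -0.63), and of 8 chlorophyll and tetrapyrrole genes 6 lower and none higher (median -0.69), of which 2 and 3 passed again without Col-0 replicates 2 and 3 at 0.3 mM. LHCB4.2, a minor antenna protein of photosystem II, gave 7777, 8190 and 7431 in Col-0 at 2 mM, 14130, 17690 and 14841 in lcs7 at 2 mM, 4137, 8190 and 6352 in Col-0 at 0.3 mM, and 4393, 4691 and 4576 in lcs7 at 0.3 mM. The lcs7 group at 2 mM stood above all others, and at 0.3 mM the genotypes overlapped. Its interaction was -1.38 ± 0.27 (limma adjusted p = 0.0126), and -0.85 without Col-0 replicates 2 and 3.

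The paralogue LHCB4.1 was lowest in lcs7 at 0.3 mM, at 16196, 16587 and 15169, against 21459 to 28053 elsewhere (-0.70 ± 0.11). PSAN, a photosystem I subunit on the lumen side, gave 9904, 8574 and 8667 against 13330 to 20685 (-0.90 ± 0.16), and PSBY, of photosystem II, 10727, 10377 and 10442 against 16235 to 20035 (-0.79 ± 0.12). RCA, the activase used as shoot marker, was called too, at -0.46 ± 0.11 (limma adjusted p = 0.0348), in 3 of 12 fits without 1 array. Whether the share of green cells or their transcripts changed was not tested.

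In chlorophyll synthesis CHLM, the methyltransferase of magnesium protoporphyrin, gave 4957, 4855 and 4613 in lcs7 at 0.3 mM and 8458 to 10320 on all other arrays (-0.81 ± 0.11, limma adjusted p = 0.00248). PORB, protochlorophyllide reductase, gave 3442, 5062 and 3843 against 5235 to 9922 (-1.03 ± 0.23), and HEME1, a uroporphyrinogen decarboxylase, 980, 1096 and 984 against 1622 to 1960 (-0.85 ± 0.12). CHLI2, a magnesium chelatase subunit, was highest in lcs7 at 2 mM, at 1322, 1455 and 1301, while lcs7 at 0.3 mM, at 868, 856 and 825, lay among the Col-0 arrays (-0.90 ± 0.14). Assembly factors gave 3 lower of 15: LPA2 (-0.77 ± 0.15) and NdhL (-0.71 ± 0.17), which serve photosystem II and the NDH complex, and HCF101 (-0.61 ± 0.13), an iron-sulphur scaffold protein. None of the 3 passed without Col-0 replicates 2 and 3 at 0.3 mM (limma adjusted p = 0.0857, 0.202 and 0.0949), and NdhL passed in 3 of the 12 fits without 1 array.

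Of 65 members encoded in the chloroplast 2 were called lower and none higher, near the 4.78% of all members called lower. They were psaJ (-0.81 ± 0.19) and rpl33 (-0.90 ± 0.21), which lie next to each other in the locus numbering. Without Col-0 replicates 2 and 3 at 0.3 mM neither passed (limma adjusted p = 0.119 and 0.141). The median change of the 65 was -0.63 in lcs7 and -0.50 in Col-0, so low calcium went with lower values in both genotypes, and the median interaction was -0.17. Whether the nuclear and chloroplast lists differ was not tested.

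Of 8 members for tubulins and cell expansion, 4 were called lower and none higher (median -0.49), and 2 of these passed again without Col-0 replicates 2 and 3 at 0.3 mM. TUB5, a beta-tubulin, gave 1250, 1320 and 1267 in lcs7 at 0.3 mM, 2007, 2600 and 2581 in Col-0 at 0.3 mM, and 2931 to 3872 at 2 mM (-1.02 ± 0.16, limma adjusted p = 0.00438). COB, the COBRA protein that orients cellulose, gave 1974, 2207 and 2210 against 2851 to 5325 elsewhere (-0.87 ± 0.18), and TUB6 and TUB9 were called at -0.60 and -0.50. The uncalled TUA1, TUB1, TUB7 and TUA6 gave 0.33, -0.11, -0.10 and -0.47. iqd21 and iqd33, which bind calmodulin and are thought to link it to microtubules, were called lower at -1.32 ± 0.16 and -0.94 ± 0.24, the 2 called of 10 IQ-domain members, on a list added after values were seen, and iqd21 alone passed without Col-0 replicates 2 and 3 at 0.3 mM.

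Single members of other families were called in both directions. MSRB9 and MSRB6, methionine sulfoxide reductases, were opposed: MSRB9 gave 2318, 2359 and 3170 in lcs7 at 0.3 mM against 216 to 582 elsewhere (1.83 ± 0.26), and MSRB6 gave 336, 190 and 302 against 697 to 1734 (-1.51 ± 0.37). The aldehyde dehydrogenases ALDH2C4, which makes ferulic and sinapic acid, and ALDH11A3 were called at 0.79 and -0.56, and the glutathione transferases GSTU27 and GSTU26 at 0.94 and -0.85. In both GSTU genes lcs7 at 2 mM was the group farthest from the rest. MSRB6 and ALDH11A3 each passed in 3 of the 12 fits without 1 array, and GSTU27 in 4. Calls that were single in their list were GH3.17, which conjugates auxin (0.95), PMEPCRF, a pectin methylesterase (0.97), PUB43 (0.78), ATG8B, of autophagosomes (0.56), PRA1.A1 (0.51), scpl25 (-0.70), TET7 (-0.63) and TBL36 (-1.01). PUB43 and ATG8B (limma adjusted p = 0.0492 each) passed in 1 of the 12 fits without 1 array, PMEPCRF in 2 and PRA1.A1 in 4. Of these 8 single calls, scpl25 alone passed without Col-0 replicates 2 and 3 at 0.3 mM, and of the 3 pairs before them MSRB9 and ALDH2C4 did.

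Besides the pump and pyrophosphate lists, 5 lists with at least 5 members gave no call. Among 9 sugar transport members SWEET16 and SWEET11, sugar carriers of the vacuole and the plasma membrane, gave -0.87 ± 0.29 and -0.36 ± 0.14 (limma adjusted p = 0.112 and 0.172). The other 4 were 12 ubiquitin-specific proteases, 11 ubiquitin-conjugating enzymes, 9 vacuolar protein sorting members and 6 rapid alkalinisation factor-like peptides. The medians of these 5 lists lay between -0.39 and 0.07. All but sugar transport were added after values were seen. VPS20.1, a subunit of the ESCRT complex, was nearest to a call among them at 0.47 ± 0.13 (adjusted p = 0.0598). The zinc transporter ZIP6, the only metal list member, gave 0.28 ± 0.20 (adjusted p = 0.515).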

How the data were processed

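Biotin-labelled RNA of 14-day shoots was hybridised to 12 ATH1 arrays, 3 in each of 4 groups taken from the labels. The deposited values are intensities of 22746 probe sets per array on a linear scale with a floor of 0.1. Per the submitters' processing notes the authors used RMA (no version) and oligo 1.32.0. The deposited intensity values are not log2 values on shared quantiles, so the summarisation behind them is not given in the sources used here. Trimmed means were nearly equal (495.4 to 496.0), and the number of arrays, not a read depth, limits the precision.

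Probe sets naming 1 gene were kept (13513; 503 named several), 1 per gene by the highest mean, which left 13356 genes, of which 13286 matched the RefSeq table (assembly TAIR10.1). A symbol was given for 1527 and a locus alone for 11829. AVP1 has no named probe set and is not analysed here.

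Signals were taken to log2(signal + 50), which understates changes of low genes. The interaction was a contrast of the 4 group means in limma 3.58.1 (R 4.3.3; empirical Bayes, 2-sided), with Benjamini-Hochberg adjustment over all 13356 genes. A call was an adjusted p under 0.05. On simulated data with 200 of 13356 genes changed, the fit recovered 67.5% of changes of 1 and 100% of changes of 2 or 3 on the log2 scale, with 8 false calls. Tables used Python 3.11.15 with pandas 2.3.3 and numpy 2.4.6, figures matplotlib 3.10.9.

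The members, the lists and the tests were chosen with earlier results of these data known, and 13 family lists were added after values were seen. Lists are described by counts and medians with no test. Named were the 10 largest interactions in each direction among called members with probe sets not marked as shared, up to 4 called members per list and direction, and the 2 of smallest p in a list with no call. Alternatives were other offsets, filters, normalizations, moderation, probe set rules, a replicate block and leaving out arrays. Keeping only Col-0 replicate 2 or 3 at 0.3 mM was chosen after seeing the data.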

Additional observations from a re-analysis of the deposited data

Results flagged for a closer look

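Low calcium acted differently in the genotypes, by the limma interaction test, at 357 members in the higher and 373 in the lower direction, and the called genes named in the text are among them. The values below are the interactions on log2(signal + 50), the change from 2 to 0.3 mM in lcs7 minus that in Col-0.

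Among the genes of antimicrobial, jasmonate and immune responses the interaction was 3.42 at THI2.1, 3.32 at LCR67, 3.29 at JRG21 and 3.24 at OSM34. It was 2.76 at CHI, 1.31 at PDF1.4, 2.02 at GRX480, 0.96 at SAG101 and 2.09 at WRKY6, while LCR68 gave -0.74. The peroxidase Prx37 gave 3.68, the lectin JAL23 3.0 and NAI2 0.84. The subtilases SBT3.3 and SBT3.5 gave 1.82 and 1.63. Among genes known by locus it was 4.2 at AT2G44240, 3.45 at AT4G16260, 3.18 at AT1G54020 and 2.88 at AT1G26390.

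The calcium sensors gave 2.52 at AT1G76640, 1.49 at CML37, 1.27 at CML41, 1.1 at CML43 and -0.72 at CML30. The channel GLR2.8 gave 1.50 and the thylakoid protein CaS -0.76. The calmodulin-binding iqd21 and iqd33 gave -1.32 and -0.94, and iqd33 passed in 2 of the 12 fits without 1 array.

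The glycosyltransferases gave 2.02 at UGT76B1, 1.97 at UGT73B4, 1.39 at UGT71B6 and 1.17 at UGT71C3. The P450s gave 1.63 at CYP71B6, 1.15 at CYP71B36, 0.80 at CYP71B24 and 0.55 at CYP71B28. CYP71B24 passed in 4 of the 12 fits without 1 array and CYP71B28 in 1. The pigment genes gave 1.76 at AT4G14090, 1.56 at DFR and 1.07 at UF3GT. The beta-glucosidases gave 1.67 at BGLU46, 1.56 at BGLU31, 1.07 at BGLU45 and 1.07 at BGLU25.

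In the cold list COR15A gave -2.27, COR15B -1.64 and COR47 -1.62. Other large lower values were -1.98 at QQS, -1.85 at AT5G62360, -1.72 at AT4G21870, -1.61 at AT5G42250, -1.59 at AT1G04800 and -1.55 at AT1G20030. The wall genes gave -1.60 at GH9B13 and -0.80 at GH9B7, and PMEPCRF gave 0.97. The tubulins gave -1.02 at TUB5, -0.60 at TUB6 and -0.50 at TUB9, with -0.87 at COB. TUB6 passed in 5 of the 12 fits without 1 array and TUB9 in 3.

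In photosynthesis the values were -1.38 at LHCB4.2, -0.90 at PSAN, -0.79 at PSBY, -0.70 at LHCB4.1 and -0.46 at RCA. In chlorophyll synthesis they were -1.03 at PORB, -0.90 at CHLI2, -0.85 at HEME1 and -0.81 at CHLM. PORB passed in 4 of the 12 fits without 1 array. The assembly factors gave -0.77 at LPA2, -0.71 at NdhL and -0.61 at HCF101, and the chloroplast genes -0.90 at rpl33 and -0.81 at psaJ.

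Of the remaining families, MSRB9 gave 1.83 and MSRB6 -1.51, ALDH2C4 0.79 and ALDH11A3 -0.56, and GSTU27 0.94 and GSTU26 -0.85. The folding factors ATERDJ3B and ATERDJ2B gave 0.83 and 0.56. Single calls were 0.95 at GH3.17, 0.78 at PUB43, 0.56 at ATG8B, 0.51 at PRA1.A1, -0.70 at scpl25, -0.63 at TET7 and -1.01 at TBL36.

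Genes chosen after their values were seen gave 1.96 at cwINV6, 1.89 at CCR2, 1.71 at CCOAMT, 1.05 at HYH, 1.01 at ATMDAR2 and 0.78 at GR1. They gave -1.11 at STOMAGEN, -1.01 at TAPX, -0.97 at NOL, -0.85 at XERICO and -0.77 at SBE2.2. Values of -0.75 at SBPASE, -0.64 at GR, -0.63 at HPR and -0.52 at DPE1 followed. GR and DPE1 each passed in 2 of the 12 fits without 1 array.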

How the results depend on the processing

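For the 730 calls (357 higher, 373 lower), with no offset there were 281 (116 higher, 165 lower), which kept 49 of the 103 called genes named in the text, and with an offset of 16 444 (204 and 240). With all probe sets, named or not, there were 1746 (830 and 916), and with a difference of at least 1 254 (179 and 75). Without Col-0 replicates 2 and 3 at 0.3 mM there were 272 (160 and 112). With replicate 2 or 3 alone kept, each also with 1 Col-0 array left at 0.3 mM that is assumed to vary like the other groups, there were 498 and 512. The cause was not tested. Leaving out 1 array gave 439 to 866 calls, 217 to 417 higher and 213 to 449 lower. It shifted more than 1.5-fold when Col-0 replicate 1 at 2 mM (470) was left out, or lcs7 replicate 2 at 2 mM (446), or lcs7 replicates 2 (475) or 3 (439) at 0.3 mM. The lower calls alone did so without Col-0 replicate 2 (240) or 3 (247) at 0.3 mM. On linear signals 60.8% of 867 calls were higher, against 48.9%. The other settings gave 620 to 988. Same-numbered arrays of different groups correlated at -0.24 to 0.32 in their deviations from the group mean, over 0.1 in 4 of 18 pairs. Differently numbered arrays correlated at -0.39 to 0.33. With 3 arrays per group this check is weak and cannot decide whether the numbers pair the arrays. With a replicate block there were 620 calls (312 and 308), 584 of them shared. Among the named genes 1 changed sign: ZIP6, not called, gave -0.057 with only Col-0 replicate 3 kept at 0.3 mM. Per array, 17.1 to 19.3% of probe sets gave signals under 20, where log2 values without an offset are poorly measured.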

Other observations

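Single enzymes of the ascorbate and glutathione cycle, which remove hydrogen peroxide, were among the calls of both directions. The genes in these paragraphs were chosen after their values were seen, and only among called members. Uncalled genes of the same pathways were not counted, so nothing is said about a pathway as a whole. Of all members 4.57% were called higher and 4.78% lower. TAPX, the thylakoid ascorbate peroxidase, gave 1036, 963 and 947 in lcs7 at 0.3 mM, against 2118 to 2806 on the other 9 arrays (interaction -1.01 ± 0.14, limma adjusted p = 0.00238). GR, the glutathione reductase of plastids and mitochondria, gave 1248, 1473 and 1337 against 1848 to 2447 (-0.64 ± 0.17). The cytosolic glutathione reductase GR1 gave 1217, 1316 and 1290 against 563 to 847 (0.78 ± 0.15), and ATMDAR2, a monodehydroascorbate reductase, 2960, 2623 and 2758 against 790 to 1324 (1.01 ± 0.24). The lcs7 arrays at 0.3 mM did not overlap with the others at any of these 4 genes.

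Chosen in the same way among the lower calls were 4 genes of carbon metabolism in the chloroplast and the peroxisome. SBPASE, of the Calvin cycle, gave 8989, 8275 and 8558 against 12037 to 14590, and HPR, the hydroxypyruvate reductase of photorespiration, 9599, 8791 and 8948 against 13316 to 16622. SBE2.2, a starch branching enzyme, gave 727, 763 and 767 against 1251 to 1520, and DPE1, which rearranges glucans in starch breakdown, 1190, 1367 and 1240 against 1797 to 2500. cwINV6, a cell wall fructan exohydrolase of the invertase family, gave 748, 710 and 640 against 51.2 to 138.6 (1.96 ± 0.23, limma adjusted p = 0.00113). NOL, a chlorophyll b reductase, gave 575, 583 and 612 against 807 to 1213.

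Of single genes from other pathways, CCR2, a cinnamoyl-CoA reductase linked to defence, gave 260.4, 188.4 and 465.6 in lcs7 at 0.3 mM and at most 43.7 elsewhere, and CCOAMT, a caffeoyl-CoA methyltransferase, 585, 674 and 663 against at most 196.5. STOMAGEN, a secreted peptide of the leaf mesophyll that raises stomatal density, gave 569, 684 and 612 against 1406 to 2119 (-1.11 ± 0.17, limma adjusted p = 0.0033). HYH, a light-signalling transcription factor, gave 198, 155 and 179 against 28.8 to 81.2. XERICO, a RING protein of abscisic acid signalling, gave 487, 383 and 401 against 697 to 1052. CCR2 and HYH are members only through lcs7 at 0.3 mM. With no offset 7 of the 15 genes chosen in this way passed, and CCR2 did not (limma adjusted p = 0.354). Choosing called genes with their values seen favours the counts that follow, so these are descriptions. All 15 of these genes had lcs7 at 0.3 mM as the group that stood apart, 10 passed in all 12 fits without 1 array, and 6 passed without Col-0 replicates 2 and 3 at 0.3 mM.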
